A study of Mus musculus with 5 samples.

Results

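The chemokine ligands are the secreted proteins that attract leukocytes, taken here as every gene whose single symbol in the platform annotation begins with Ccl, Cxcl, Xcl or Cx3cl and a digit, without Cxcl13, Ccl19 and Ccl21a. This gave 32 genes of the 19938 genes named by a single-symbol probe set. They were measured in CD45+ cells, the leukocytes, sorted by flow cytometry from the pancreas of 5 wild-type female NOD mice aged 10 weeks, 1 array for each mouse. NOD mice develop autoimmune diabetes without treatment as leukocytes infiltrate their islets. Each pancreas had been imaged by MRI before it was removed, and the labels give 1 T2 value, the transverse relaxation time, for each mouse. Mice 1 and 2 had nearly the same T2, 35.3 and 35.24 ms, and mice 3, 4 and 5 had 32.77, 30.02 and 28.98 ms. All 5 mice share strain, sex, age and sort, with no untreated or diabetes-free group beside them. The labels do not say which T2 values go with more severe infiltration, and no such reading is made here.

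Chemokines bind G protein-coupled receptors on leukocytes and set the direction in which these cells move. They are named by the spacing of their first cysteines, as CC, CXC, C and CX3C ligands, and most receptors of inflamed tissue accept several of them. In the infiltrated islet, CXCL9 and CXCL10 are known as interferon-gamma induced ligands of CXCR3 on effector T cells, and CCL3, CCL4 and CCL5 as products of activated T cells and macrophages. Stromal cells, endothelium and beta cells also make chemokines, and these cells do not carry the CD45 used for the sort.

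The sort was checked against marker genes. Ptprc, which encodes CD45, had a log2 intensity of 11.06 ± 0.10 (SD, n = 5). Endothelial, islet endocrine and ductal or other epithelial lists had 0 of 8, 0 of 8 and 0 of 7 measured genes past a mean log2 intensity of 6. The fibroblast and pericyte list had 1 of 9, and that gene, Thy1, is also in the T cell list. Acinar genes were the exception, with 5 of 7 measured genes past it. An intensity depends on the probes of a set as well as on the RNA, so a higher intensity of 1 gene than of another is not read as more RNA. The threshold of 6, orders by mean and comparisons of SD between genes carry this limit.

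Of the 32 ligands 5 were expressed, meaning a mean log2 intensity of at least 6 over the 5 arrays. This threshold was passed by 33.1% of all 19938 genes. The expressed ligands were Ccl5, Ccl6, Ccl9, Ccl3 and Cxcl14. The first 4 were above 6 on every array, whereas Cxcl14, at a mean of 6.01, was above it on 2 arrays. Cxcl14 lay just inside the threshold and Cxcl10, with a mean of 5.90, just outside it. Of the 27 ligands under the threshold, 6 had a mean between 5 and 6 and 21 had a mean under 5. Array medians were between 4.57 and 4.61 on the log2 scale.

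**Figure D1:**
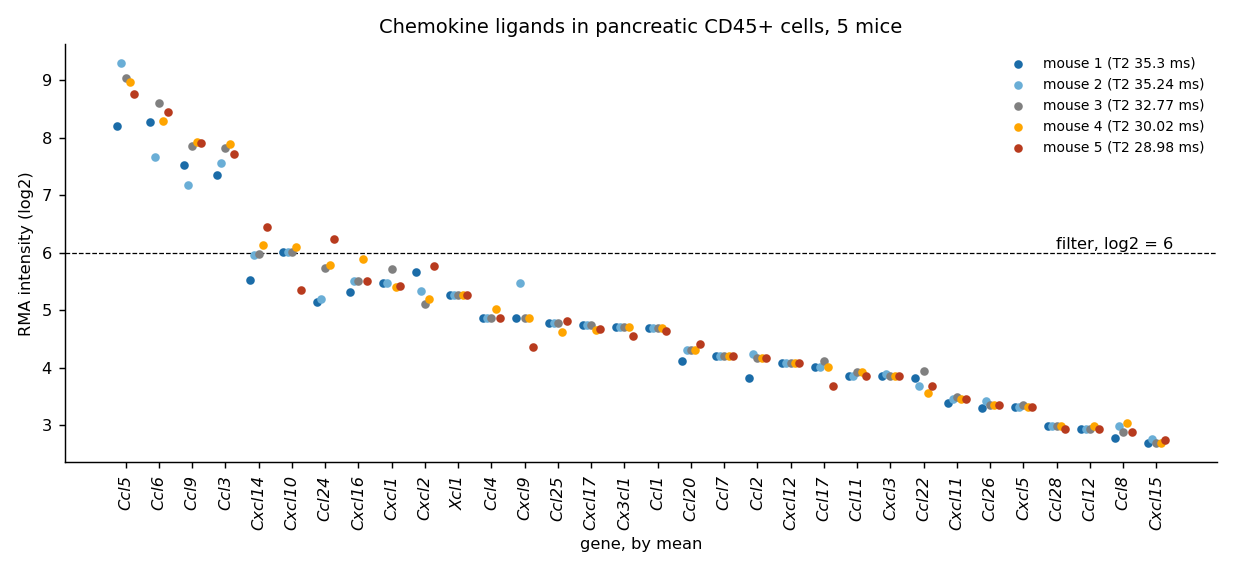
RMA intensity on a log2 scale (vertical axis) of the 32 chemokine ligands (horizontal axis, by mean) with 1 point for each of the 5 mice. The dashed line is the expression threshold of 6; Ccl5, Ccl6, Ccl9 and Ccl3 lie above it in all 5 mice, and most ligands at the right have overlying points.

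Of the expressed ligands, 4 are neighbours. In the RefSeq gene table of GRCm38.p6 the coding genes Ccl5, Ccl9, Ccl6, Ccl3 and Ccl4 follow each other on chromosome 11, in this order, and of this run Ccl4 was under the threshold. Chromosome 11 holds 12 of the ligands. The other CC run there, Ccl2, Ccl7, Ccl11, Ccl12, Ccl8 and Ccl1, had no expressed member. RefSeq promoters matched 21 of the 32 ligands and 4 of the 5 expressed ones. The 250 bases before the start of Ccl3, Ccl6 and Ccl9 are shown. Ccl5 had no promoter entry, and the window of Cxcl14 did not end just before the gene's outermost start, so neither is shown. They lie on the minus strand of GRCm38.p6, at chr11:83649379-83649628, chr11:83593088-83593337 and chr11:83578637-83578886. Each is printed 5′ to 3′ with capitals for the motif matches described after them.
Ccl3: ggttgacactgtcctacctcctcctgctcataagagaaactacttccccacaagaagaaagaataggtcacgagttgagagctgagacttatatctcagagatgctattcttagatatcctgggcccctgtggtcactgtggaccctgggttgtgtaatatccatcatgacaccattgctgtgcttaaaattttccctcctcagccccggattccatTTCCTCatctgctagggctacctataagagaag
Ccl6: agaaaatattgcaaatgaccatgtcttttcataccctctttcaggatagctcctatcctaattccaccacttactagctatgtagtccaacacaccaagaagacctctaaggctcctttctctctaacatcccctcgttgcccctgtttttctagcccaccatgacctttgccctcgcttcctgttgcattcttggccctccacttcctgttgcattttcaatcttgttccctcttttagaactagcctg
Ccl9: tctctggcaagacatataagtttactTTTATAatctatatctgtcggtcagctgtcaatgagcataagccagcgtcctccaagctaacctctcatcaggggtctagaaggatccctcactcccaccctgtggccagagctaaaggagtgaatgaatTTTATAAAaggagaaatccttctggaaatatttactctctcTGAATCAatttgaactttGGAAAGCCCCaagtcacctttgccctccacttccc

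Motifs were searched on both strands in these windows and in 32851 RefSeq promoter windows of the same length. Whether each of the 32851 windows ends just before its gene's outermost start was not checked. The TATA box letters TATAAA were in 12.4% of them, the NF-kB consensus in 7.25% and the AP-1 letters TGANTCA in 6.75%. The PU.1 letters GAGGAA were in 23.3% and the C/EBP letters TTGCNNAA in 9.56%. Ccl9 held 5 matches. These were TATA letters on the opposite strand at -224 to -219 and at -94 to -89, TATA letters on the same strand at -92 to -87, AP-1 letters at -53 to -47 and the NF-kB consensus on the opposite strand at -35 to -26, counted from the start. The matches at -94 to -89 and at -92 to -87 overlap. Ccl3 held 1 match, the PU.1 letters on the opposite strand at -33 to -28, and Ccl6 held none of these letters in this window. A match is a description of the sequence and not evidence of binding.

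Ccl5, also called RANTES, is a CCR1 and CCR3 ligand that effector T cells and NK cells are known to store and release. Its log2 intensity was 8.20, 9.30, 9.04, 8.96 and 8.75 in mice 1 to 5. Its lowest and highest values were thus in mice 1 and 2, whose T2 differed by 0.06 ms, so its whole range of 1.10 lay between mice of nearly the same T2. The T cell list, with 12 of 12 measured genes past the threshold, had means of 7.89, 8.77, 8.34, 8.38 and 8.10 in mice 1 to 5. The NK and cytotoxic list, with 5 of 11 past it, had 6.41, 7.14, 6.96, 6.72 and 6.90. Ccl5 and both lists were lowest in mouse 1 and highest in mouse 2, and the part of these cells in the Ccl5 values was not tested. In bulk RNA, fewer cells of a type and less RNA per cell cannot be told apart.

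Ccl3, also called MIP-1 alpha, is a CCR1 ligand known from activated macrophages, T cells and other leukocytes. It read 7.35, 7.55, 7.82, 7.89 and 7.71 in mice 1 to 5. Mice 1 and 2 were below the other 3 mice, and the range of 0.54 was the narrowest among the 5 expressed ligands. Ccl4, or MIP-1 beta, often made together with CCL3, was listed at the same value of 4.86 in 4 mice and at 5.02 in mouse 4. Ccl3 is also known as a gene that tissue dissociation can induce. The dissociation stress and immediate early list, with 13 of 14 measured genes past the threshold, had means from 7.88, in mouse 2, to 8.58, in mouse 5. Ccl3 was below its own mean in mice 1 and 2, and this list in mice 1, 2 and 3. The macrophage list, described below, was under its own mean in mice 1 and 2, and the T cell list in mice 1 and 5. The part of dissociation and of these cells in the Ccl3 values was not tested.

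Ccl6 and Ccl9 are CCR1 ligands of rodents, known from macrophages and other myeloid cells. Ccl6 read 8.27, 7.66, 8.61, 8.29 and 8.45 in mice 1 to 5. Ccl9 read 7.53, 7.17, 7.85, 7.92 and 7.91 in mice 1 to 5. Mouse 2 was the lowest for both, and mouse 1 was below the 3 mice of lower T2 for both. The difference between mice 1 and 2 was 0.61 of a range of 0.95 for Ccl6 and 0.35 of a range of 0.75 for Ccl9. The macrophage list, with 10 of 14 measured genes past the threshold, had means of 7.93, 8.04, 8.63, 9.17 and 9.21 in mice 1 to 5, and the neutrophil list, with 6 of 10, had means from 6.85, in mouse 4, to 8.76, in mouse 3, with 7.11 in mouse 2. Mice 1 and 2 were low in the macrophage list, as they were for Ccl9, while Ccl6 was highest in mouse 3, where the neutrophil list was highest. In mouse 4, where the neutrophil list was lowest, Ccl6 and Ccl9 were not low. The part of these cells in the values of Ccl6 and Ccl9 was not tested.

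Cxcl14 is a CXC ligand best known from epithelium and stroma, whose receptor is not settled. It read 5.52, 5.95, 5.98, 6.13 and 6.46 in mice 1 to 5, so its order was that of falling T2. Fibroblast and pericyte genes, over all 9 measured, averaged between 4.64 and 4.82 in the 5 mice, and ductal and other epithelial genes, over 7, between 4.20 and 4.41. The mast cell and basophil list, with 5 of 10 genes past the threshold, had means of 5.79, 6.31, 6.90, 6.86 and 7.03. Mouse 1 was the lowest and mouse 5 the highest for these 5 genes and for Cxcl14. Over all 10 measured genes of the list, mouse 1 was again the lowest, at 4.65. Mouse 3 was then the highest, at 5.36, with 5.34 in mouse 5. The macrophage list given above rose from mouse 1 to mouse 5 in the same order as Cxcl14. The acinar list, with 5 of 7 measured genes past the threshold, was highest in mouse 1, at 7.60, and lowest in mouse 2, at 6.68. The part of these cells in the Cxcl14 values was not tested.

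The median SD of the expressed ligands over the 5 mice was 0.34 log2, against 0.11 for the 6603 genes past the threshold. An SD larger than that of Ccl5, 0.41, was found for 2.94% of these genes, and for Ccl6, with 0.36, the share was 4.10%. The shares were 4.74% for Cxcl14 (SD 0.34), 5.26% for Ccl9 (SD 0.32) and 14.3% for Ccl3 (SD 0.22). Of the 6603 genes, 38.2% have the same value on 3 or more arrays, which can lower an SD, and none of the 5 ligands does. Over the other 4079 genes, a reference added after the values were seen, the median SD was 0.14. An SD larger than the ligand's was then found for 4.66% of genes for Ccl5, 6.55% for Ccl6, 7.48% for Cxcl14, 8.19% for Ccl9 and 21.5% for Ccl3. The 27 ligands under the threshold had a median SD of 0.072, against 0.070 for all genes under it.

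**Figure D2:**
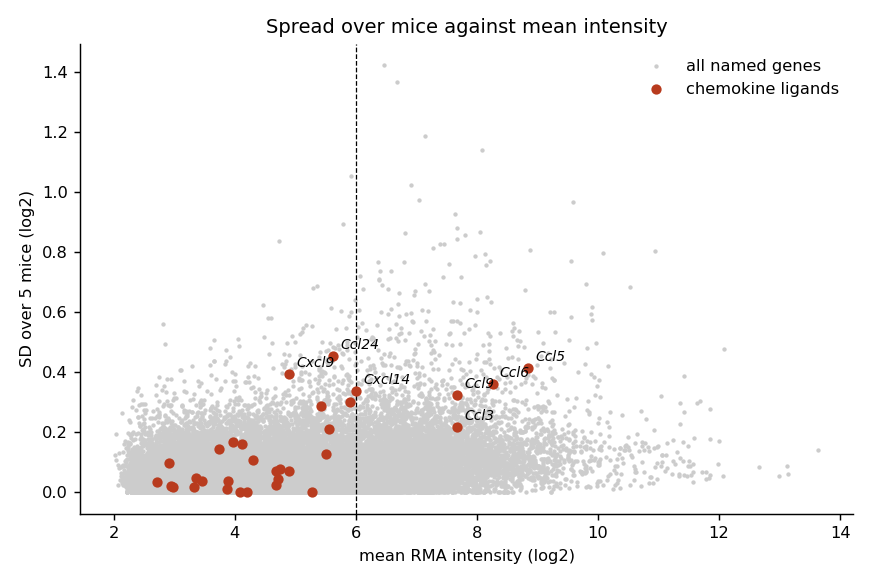
SD of log2 intensity over 5 mice (vertical axis) against mean log2 intensity (horizontal axis) for 19938 genes in grey and the 32 chemokine ligands in red, with the threshold of 6 dashed. The 5 expressed ligands had SDs from 0.22 to 0.41, against a median of 0.11 over genes past the threshold.

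The study related expression to the MRI signal, and a slope of log2 intensity on T2 was fitted for each gene with limma, adjusting by Benjamini-Hochberg over the 6603 genes past the threshold. No expressed ligand passed at an adjusted p under 0.05 (0 of 5; 0% of all genes tested). At an unadjusted p under 0.05 there were 2 of the 5, Ccl9 and Cxcl14, each with a negative slope, against 4.59% of genes tested with a negative slope at this level. All 5 slopes were negative, as were 67.9% of all slopes, and their median was -0.067 log2 per ms against -0.0074 over all genes tested. The count of 2 was 0 without mouse 3, mouse 4 or mouse 5 and 1 without mouse 1 or mouse 2. Without mouse 1 the ligand counted was Ccl5, with a positive slope (limma unadjusted p = 0.0157), and neither Ccl9 nor Cxcl14. Without mouse 2 the ligand counted was Cxcl14. With 5 arrays each slope is imprecise.

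Cxcl14 had a slope of -0.10 ± 0.030 log2 per ms (SE, n = 5; limma adjusted p = 0.828), so that the fitted level at the lowest T2 was 1.55 times that at the highest, 6.32 ms away (95% interval 1.07 to 2.25). An exact two-sided permutation of T2 over its 120 orders gave p = 0.025 for it, where 0.00833 is the smallest p possible. Ccl9 had a slope of -0.093 ± 0.031 and a ratio of 1.50 (1.03 to 2.21; limma adjusted p = 0.828; exact permutation p = 0.0833). Ccl6 and Ccl3 had slopes of -0.067 ± 0.053 and -0.055 ± 0.026, with ratios of 1.34 (0.695 to 2.58) and 1.27 (0.925 to 1.75). Both intervals include 1. Ccl5 had a slope of -0.014 ± 0.072 and a ratio of 1.06 (0.439 to 2.58). Its slope was 0.076 without mouse 1 (limma adjusted p = 0.422), the opposite direction.

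**Figure D3:**
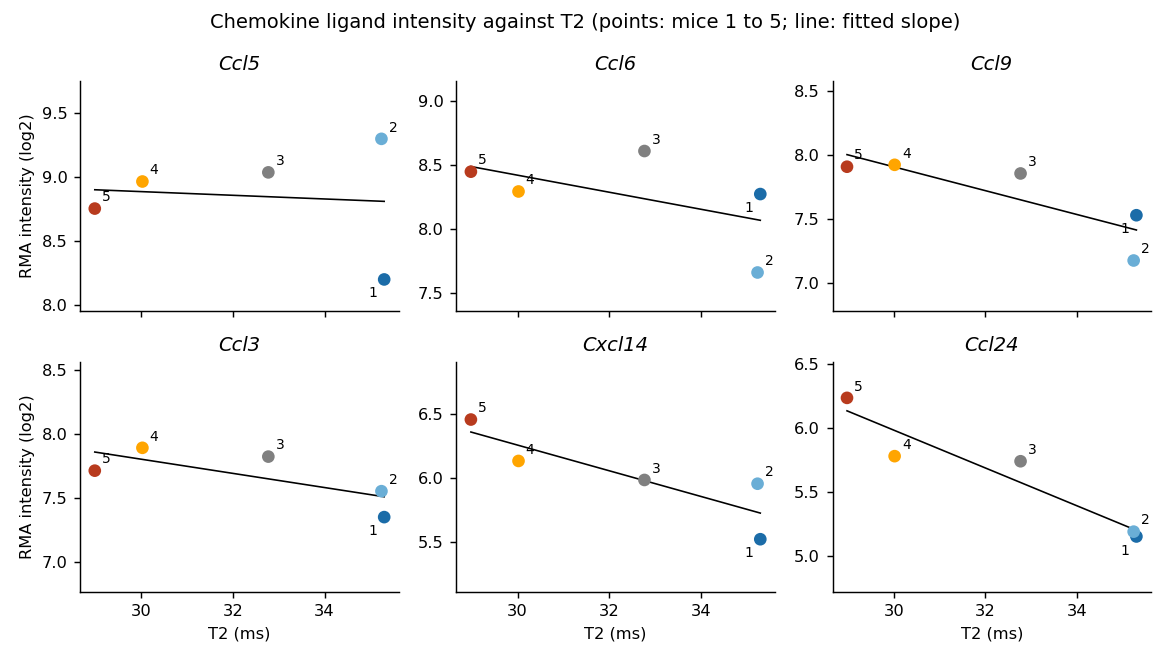
Log2 intensity (vertical axes, each spanning the same height) of Ccl5, Ccl6, Ccl9, Ccl3, Cxcl14 and Ccl24 against T2 in ms (horizontal axes), with numbered points for mice 1 to 5 and the fitted line. Ccl5 has its lowest and highest points at nearly the same T2, whereas Ccl24 differs by 0.04 between mice 1 and 2 and is highest in mouse 5.

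The CCR3 ligands, or eotaxins, attract eosinophils and some other granulocytes. Ccl24, eotaxin-2, is also known from alternatively activated macrophages. It read 5.15, 5.19, 5.74, 5.78 and 6.23 in mice 1 to 5. Mice 1 and 2 differed by 0.04 and the other mice were higher, in the order of falling T2, and only the value of mouse 5 was above 6. Under the threshold, slopes come from a fit over all 19938 genes. Ccl24 had a slope of -0.15 ± 0.026 and a ratio of 1.91 (95% interval 1.38 to 2.66; limma adjusted p = 0.813), with exact permutation p = 0.00833, the smallest the design allows. Leaving out each mouse in turn kept its slope between -0.17 and -0.12. In that fit 4 of the 32 ligands had an unadjusted p under 0.05, 3 of them negative, and none an adjusted p under 0.05, against 3.24% of all genes in either direction and 2.19% with a negative slope at the unadjusted level, and 0% at the adjusted one. These were Ccl24, Cxcl14 and Ccl9, and with a positive slope Cxcl17, whose values spanned 0.092 log2 with the same value in 3 mice. Among genes past the threshold, the macrophage and mast cell lists given above were also lowest in mouse 1 and highest in mouse 5. Their mean slopes were -0.21 and -0.15. Over all measured genes the mean slopes were -0.16 and -0.083, and the mast cell list was highest in mouse 3. The part of these cells in the Ccl24 values was not tested. Ccl11, eotaxin-1, and Ccl26 had values between 3.30 and 3.94. Ccr3 itself, the receptor, was between 3.56 and 3.87.

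The CXCR3 ligands Cxcl9, Cxcl10 and Cxcl11 were under the threshold. Cxcl10 was listed at 6.01 in mice 1, 2 and 3, 6.10 in mouse 4 and 5.36 in mouse 5. Cxcl9 read 4.87 in mouse 1, 5.47 in mouse 2, 4.87 in mice 3 and 4 and 4.36 in mouse 5. Mouse 5 was the lowest for both, and Cxcl9 alone was high in mouse 2. Cxcl9 had a slope of 0.10 ± 0.047 (95% interval -0.037 to 0.24; limma adjusted p = 0.813), the opposite sign to the expressed ligands. Cxcl11 had values between 3.40 and 3.50. Their receptor Cxcr3, carried by effector T cells, was past the threshold, with 7.60, 8.11, 7.93, 7.51 and 7.43 in mice 1 to 5. Cxcr3 was thus also highest in mouse 2 and lowest in mouse 5, and its slope was 0.069 ± 0.038 (limma adjusted p = 0.828).

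**Figure D4:**
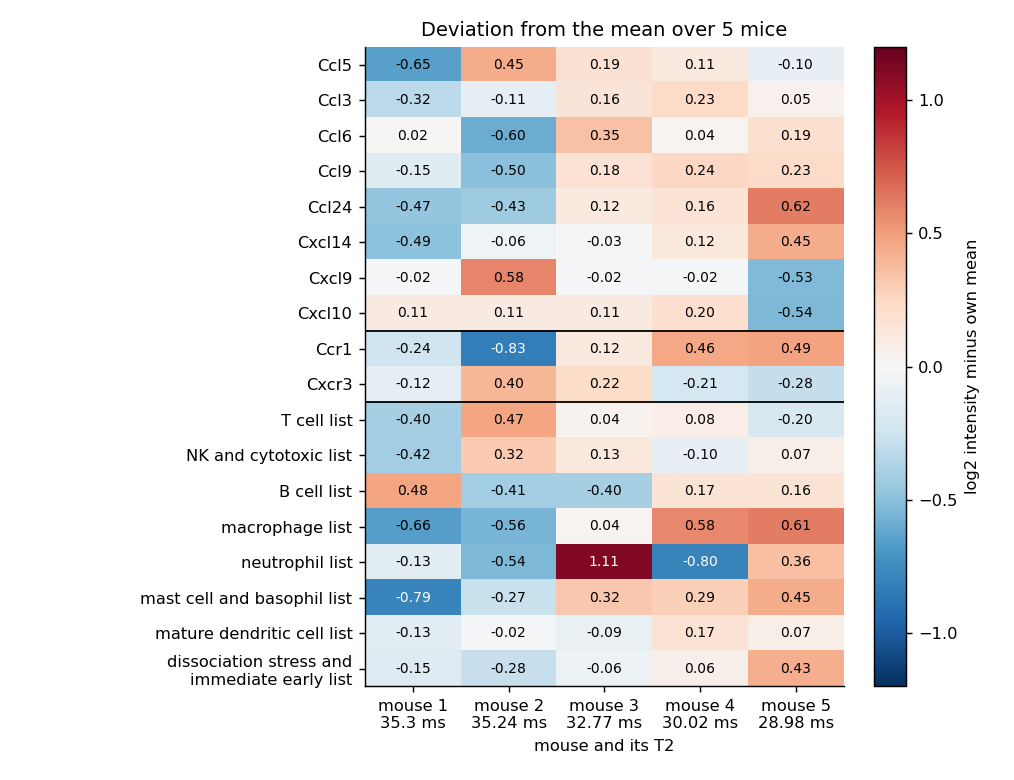
Log2 intensity minus its own mean over the 5 mice (colour and printed value) for 8 chemokine ligands, 2 receptors and 8 marker list means (rows) in mice 1 to 5 with their T2 (columns). Ccl5 and the T cell list share their lowest mouse, 1, and highest mouse, 2, while Ccl24 and the macrophage list have negative values in mice 1 and 2 and positive values in the others.

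The CXCR2 ligands, which attract neutrophils, were under the threshold. Cxcl1, or KC, read 5.48 in mice 1 and 2, 5.72 in mouse 3, 5.41 in mouse 4 and 5.42 in mouse 5, highest in the mouse where the neutrophil list was highest. Cxcl2, or MIP-2, read 5.66, 5.34, 5.12, 5.19 and 5.77 in mice 1 to 5, and was lowest in that same mouse. Their slopes were 0.014 ± 0.022 and -0.0089 ± 0.052. Cxcl3, Cxcl5 and Cxcl15 had values between 2.69 and 3.89. The receptor Cxcr2, which is in the neutrophil list, had 7.97, 7.76, 9.17, 7.51 and 8.42, and a slope of -0.019 ± 0.11.

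The remaining groups held ligands with low and mostly equal values. Of the CCR2 ligands, which attract monocytes, Ccl2 (MCP-1) was listed at 4.17 in mice 3, 4 and 5, 4.24 in mouse 2 and 3.83 in mouse 1. Ccl7, Ccl8 and Ccl12 had values between 2.79 and 4.20, and Ccl7 was the same on all 5 arrays. Ccl8 had a slope of -0.010 ± 0.017. The CCR4 ligands of dendritic cells and macrophages, Ccl17 and Ccl22, had values between 3.57 and 4.12, and Ccl22 had a slope of 0.023 ± 0.023. The mature dendritic cell list had 5 of 8 measured genes past the threshold and means between 7.39 and 7.69. Cxcl16, the CXCR6 ligand made by antigen-presenting cells, read 5.31 in mouse 1, 5.51 in mice 2, 3 and 5 and 5.89 in mouse 4. Cxcl12, the CXCR4 ligand of stroma, was 4.09 in all 5 mice, and Xcl1, a ligand of XCR1 on cross-presenting dendritic cells, 5.27 in all 5. Cx3cl1, or fractalkine, was 4.71 in 4 mice and 4.55 in mouse 5. Cxcl17 lay between 4.65 and 4.75. Ccl20, the CCR6 ligand, lay between 4.12 and 4.41, and Ccl1, Ccl25 and Ccl28, ligands of CCR8, CCR9 and CCR10, between 2.94 and 4.82.

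Equal values were common among these ligands. The same value on 3 or more arrays was found for 21 of the 27 ligands under the threshold (77.8%), against 69.2% of all genes under it. None of the 5 expressed ligands had it, against 38.2% of all genes past the threshold. Equal values can make a gene look steadier than it was, so no slope is given for such a ligand. Their cause is not given in the sources used here. Ccl27a, Ccl27b, Ccl21b and Ccl21c had no probe set of a single symbol and were not counted. Also not counted were 7 probe sets with several symbols, at least 1 of them a chemokine ligand, with log2 intensities between 4.18 and 5.32.

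**Figure D5:**
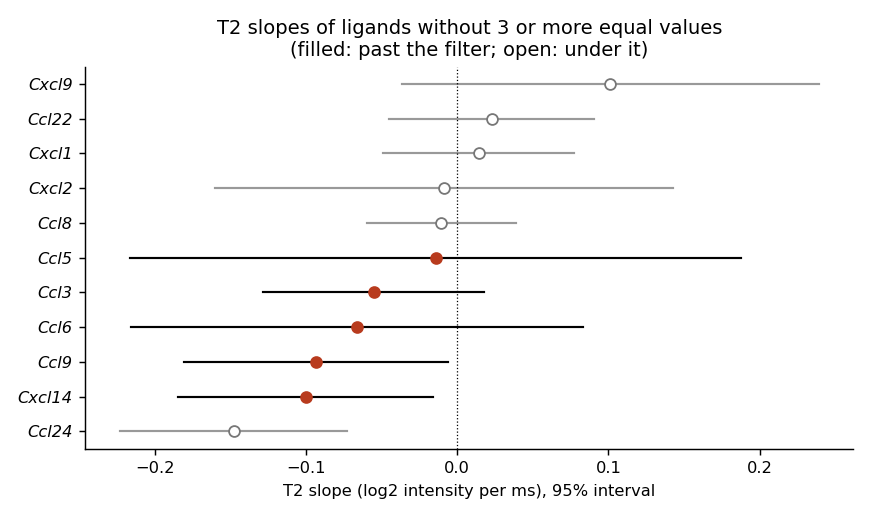
T2 slope in log2 intensity per ms with its 95% interval (horizontal axis) for the 11 chemokine ligands without equal values on 3 or more arrays. Filled points are past the expression threshold and open points under it; the intervals of Ccl24, Cxcl14 and Ccl9 lie below 0 before adjustment, and none of the 11 passed after it.

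Of the 23 measured genes of chemokine receptors, 11 were past the threshold. None of the 11 passed the adjusted test (0% of all genes tested), and 7 had a negative slope, against 67.9% of all genes tested. At an unadjusted p under 0.05 there was 1 of the 11, Ccr1, with a negative slope, against 4.59% of genes tested with a negative slope at this level. Ccr1, the receptor of Ccl3, Ccl5, Ccl6 and Ccl9 on monocytes, macrophages and neutrophils, read 5.79, 5.20, 6.15, 6.50 and 6.52 in mice 1 to 5. Mouse 2 was the lowest, as for Ccl6 and Ccl9. Its slope was -0.17 ± 0.042 and its ratio 2.11 (limma adjusted p = 0.633; exact permutation p = 0.0417). Ccr2 and Cx3cr1, the monocyte receptors of Ccl2 and Cx3cl1, had slopes of -0.0074 ± 0.019 and 0.028 ± 0.038. Cxcr6, the Cxcl16 receptor of effector T cells, had 6.46, 7.24, 6.96, 6.80 and 6.65 in mice 1 to 5, lowest in mouse 1 and highest in mouse 2, as was Ccl5. Its slope was 0.025 ± 0.051.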

How the data were processed

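CD45+ cells were sorted from the pancreas of 5 NOD mice and their TriZol-extracted total RNA was hybridised to 1 array each, per the labels. The deposited values were linear intensities, made by the authors with RMA (background correction, quantile normalization, median polish) as the submitters' processing notes name it together with Affymetrix Power Tools. Tool versions and the genome build were not given in the sources used here. The intensities ran from 2.87 to 19435, with array medians from 23.8 to 24.5. RMA pulls low values together, which compresses differences of dim genes. They were transformed to log2. GEO's platform annotation gave 21789 of 35556 probe sets 1 symbol, 1621 several and 12146 none. The probe set of highest mean stood for a gene, and all 32 ligands matched RefSeq by gene identifier. Slopes on T2 came from limma 3.58.1 (lmFit, eBayes; R 4.3.3), tested two-sided with 3 residual degrees of freedom; intervals are from the moderated fit. The members and lists were chosen with earlier results of these data known. By the rule for named genes, expressed ligands are given with 5 values, and the others by range for each receptor group, with values for the brightest of a group, for any ligand reaching 6 on an array, and for a fixed set of well-known ligands; receptors are those of named ligands. The fit was tested on simulated data. No date or slide is given, so no batch was tested, and T2 fell in the order of the mouse numbers, so effects of handling order and of T2 cannot be told apart. Alternatives were other filters, renormalized or centred arrays, all probe sets, ranks of T2, other variance models, array weights, removal of genes with equal values, exact permutation and each mouse left out. Promoter sequences are from RefSeq, GRCm38.p6.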

Additional observations from a re-analysis of the deposited data

Results flagged for a closer look

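In 29 of the 32 ligands, those with any difference between mice, 12 had 1 mouse apart from the other 4, judged by how much of the gene's range lay between it and the nearest mouse. About 1 in 20 groups meets this by chance. Of the 12, 11 have equal values on 3 or more arrays, where any other value stands apart. The exception was Cxcl1, highest in mouse 3 at 5.72 against 5.41 to 5.48. Mouse 5 was the lowest for Cxcl10 (5.36 against 6.01 to 6.10), Ccl17 (3.68 against 4.02 to 4.12), Ccl1 (4.63), Cx3cl1 (4.55) and Ccl28 (2.94). Mouse 4 was the highest for Ccl4 (5.02) and Ccl12 (2.98) and the lowest for Ccl25 (4.62). Mouse 1 was the lowest for Ccl2 (3.83 against 4.17 to 4.24), mouse 2 the highest for Cxcl3 (3.89) and mouse 3 the highest for Cxcl5 (3.36). None of the 12 receptors and related genes past the threshold and none of the 11 marker lists of more than 1 gene met this criterion.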

How the results depend on the processing

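No ligand passed the adjusted threshold under any alternative run. Of all genes, 35 of 4079 passed it when genes with equal values were left out. With array weights 4 of 6603 passed, and with a filter of 7, 3 of 3563. With genes with equal values left out and no filter, the limma adjusted p of Ccl24 was 0.0971. The number of expressed ligands, 5, was 11 at a threshold of 5 and 4 or 7 under the other thresholds. At an unadjusted p under 0.05, 2 ligands became 4 with no filter, 1 with a filter of 7 and 1 on ranks of T2, and 0 to 1 without 1 mouse. Negative slopes were 16 of 32 ligands with no filter, against 9240 of all 19938 genes. These 32 include the 21 ligands with equal values on 3 or more arrays, of which 3 have the same value on all 5. With a filter of 5, negative slopes were 8 of 11 ligands, and the median slope of all genes was -0.0043. The share of all genes with a negative slope was not counted at that filter, so no reading is made of the 8. At the filter of 6 this share was 67.9%. The median slope, -0.067, was -3.47e-05 with no filter, -0.044 with a filter of 5 and -0.052 with renormalized arrays, which moved the median of all genes from -0.0074 to 0.0044; the cause was not tested for the last. The median SD, 0.34, was 0.087 with no filter and between 0.23 and 0.38 without 1 mouse. Of 254 recomputed slopes of 11 ligands and 6 receptors 14 changed sign, and none crossed the adjusted threshold. With array weights the slope of Ccl5 was 0.013, of Cxcl2 0.024 and of Cxcr2 0.038; with renormalized arrays that of Ccr2 was 0.0055; the causes were not tested. Without 1 mouse the slope ranged from -0.084 to 0.076 for Ccl5, -0.027 to 0.0041 for Ccl8, -0.049 to 0.066 for Cxcl2, -0.020 to 0.0088 for Ccr2, -0.099 to 0.032 for Cxcr2 and -0.025 to 0.089 for Cxcr6.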

Other observations

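Platelet factor 4, Pf4, is a CXC chemokine whose symbol falls outside the rule; it is known from platelets and some macrophages. Its log2 intensity was 3.74, 4.22, 4.37, 4.44 and 4.69 in mice 1 to 5, all under the threshold and in the order of falling T2, as for Ccl24 and Cxcl14. Its slope was -0.10 ± 0.033 (limma adjusted p = 0.813 over all genes). The platelet list had 0 of 5 measured genes past the threshold and means between 4.32 and 4.38 in the 5 mice. Ppbp, another platelet chemokine gene, was listed at 3.24 in mice 3, 4 and 5, 2.94 in mouse 1 and 3.46 in mouse 2. Ccl11 and Cxcl3 were listed at the same log2 intensity of 3.86 in mouse 1 and in mouse 5. This value was not particular to them, as genes outside the ligands, among them Acot1 and Alk, had a mean of 3.86 with an SD of 0.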
